A study of Mus musculus with 8 samples.

Results

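Genes of the SLC1, SLC3, SLC6, SLC7, SLC36, SLC38 and SLC43 solute carrier families, which hold most of the plasma membrane and lysosomal amino acid transporters, were compared between ICAM1high and ICAM1low tumour neutrophils. The set was read from the deposited count table by gene name, as every protein_coding row named Slc1a, Slc3a, Slc6a, Slc7a, Slc36a, Slc38a or Slc43a followed by a digit, and held 64 of 54532 rows. The cells came from mammary fat pad tumours of Balb/c mice that had been injected with 2208L cells, a mouse mammary tumour line. Each tumour was removed once its diameter was 1 cm, and after dissociation the infiltrating neutrophils were sorted by flow cytometry for ICAM1 (CD54), an adhesion molecule, into an ICAM1high and an ICAM1low fraction. Each fraction gave 4 libraries, labelled as biological replicates, from mice with no treatment. The sources used here give neither the age of the mice nor how many mice stand behind a library. The p-values therefore set the difference between the fractions against the spread between these libraries.

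As background, amino acids cross membranes on carriers that differ in what drives them. SLC1, SLC6 and SLC38 carriers couple uptake to sodium, and SLC43 carriers are sodium-independent. SLC36 carriers work largely at endosomes and lysosomes, and some, such as PAT1 encoded by Slc36a1, move amino acids with protons. Cationic amino acid transporters of the SLC7 family work alone, whereas the SLC7 light chains carry the substrate but reach the cell surface only when bound to a heavy chain of the SLC3 family, of which Slc3a2 encodes CD98hc. The cystine and glutamate exchanger xCT, the light chain encoded by Slc7a11, supplies cysteine for glutathione. Slc6 genes also include carriers of neurotransmitters, taurine and creatine, Slc43a3 encodes a purine nucleobase carrier, and Slc7a6os, which met the naming rule, is a neighbour of Slc7a6 that encodes no transporter.

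Totals were 10328575 to 20625309 counts in ICAM1high and 16768777 to 22751975 counts in ICAM1low, and the transporter genes took 0.202 to 0.308% and 0.155 to 0.261% of them. On the second principal component, replicate 1 of ICAM1high and replicate 4 of ICAM1low lay away from their groups. The sort marker Icam1 was at 1459 ± 202 against 848 ± 214 CPM (SD, n = 4), a log2 fold change of 0.78 (adjusted p = 0.0105, SE 0.20), and did not pass in replicates 1 and 2 alone (0.52, adjusted p = 0.258). All 12 neutrophil markers were detected in both fractions and were lower in ICAM1high, with a summed level of 8230 to 11200 against 37300 to 75600 CPM. Macrophage markers moved the other way, 11 of 12 higher, with a summed level of 10600 to 17300 against 1220 to 1850 CPM. Monocyte markers summed to 302 to 676 against 94.6 to 142 CPM, and epithelial tumour markers to 111 to 163 against 258 to 459 CPM. Of the monocyte markers 3 of 6 were higher, and of the epithelial markers 3 of 7 were lower. No neutrophil, macrophage or monocyte marker was under 1 CPM in all 8 libraries, whereas Flt3 and Xcr1 of dendritic cells, Trac, Ncr1 and Klrb1c of T and NK cells, Krt5 of epithelium and Epx, Prg2, Mcpt8 and Cpa3 of eosinophils, basophils and mast cells were. The list of those last 3 cell types, with 1 of 7 markers higher and 2 lower, summed to 120 to 174 against 77.9 to 107 CPM. Fibroblast markers, 2 of 6 higher, summed to 49.2 to 112 against 32.4 to 55.3 CPM, endothelial markers, 1 of 5 higher, to 35.5 to 46.6 against 19.1 to 47.3 CPM, and B cell markers, 1 of 5 higher, to 4.17 to 25 against 0.978 to 6.68 CPM. T and NK cell markers, 1 of 8 higher and 1 lower, summed to 23.1 to 29.6 against 13.6 to 22 CPM. Dendritic cell markers, 0 of 7 higher and 1 lower, summed to 14.8 to 26.7 against 22.4 to 27.3 CPM. Levels of several of these lists differed between the same fractions that every transporter comparison given here sets against each other. Their part in the transporter results was not tested. In bulk libraries, fewer cells of a type and less RNA per cell cannot be told apart.

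Of the 64 genes, 12 had no count in any library, among them Slc1a6, Slc1a7, Slc6a3, Slc6a5, Slc6a11, Slc6a18, Slc6a20a, Slc7a9, Slc7a10, Slc7a12 and Slc38a11. A count of 0 allows up to 3 counts, which is 0.132 to 0.290 CPM of the unscaled totals, for counting error only. Another 15 were near 0, with at most 9 counts in any library: Slc1a3, Slc6a4, Slc6a7, Slc6a14, Slc6a16, Slc6a17, Slc6a19, Slc6a21, Slc7a13, Slc7a14, Slc7a15, Slc38a4, Slc38a5, Slc38a8 and Slc43a1. Slc1a1, Slc1a2, Slc3a1, Slc6a20b and Slc36a2 reached at most 24 counts and did not pass the filter on low counts either. Among them, Slc36a2, a proton-coupled glycine and proline carrier, had 24, 14, 8 and 2 counts in ICAM1high replicates 1 to 4 and 0, 0, 4 and 0 counts in ICAM1low replicates 1 to 4. Slc36a2 was picked after its counts were seen, and its difference was not tested. Slc3a1 encodes the heavy chain rBAT, whose partner Slc7a9 was at 0 counts, and had 0 to 10 counts per library. Thus 13 of 21 SLC6 genes, 6 of 16 SLC7 genes, 4 of 11 SLC38 genes, 3 of 7 SLC1 genes and 1 of 3 SLC43 genes were at or near 0, against 0 of 4 SLC36 and 0 of 2 SLC3 genes.

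The other 32 genes passed the filter, and they are the ones to which the following counts apply. In ICAM1high 12 of these 32 were higher (37.5%) and 6 were lower (18.8%) by edgeR's quasi-likelihood test at an adjusted p under 0.05, while 14 did not pass. Over all 14051 genes tested, 42.1% were called, 22.6% as higher and 19.6% as lower, so the share that was lower lay close to that of all genes. The median log2 fold change was 0.15 over the 32 genes and 0.08 over all genes tested. Every ICAM1high library lay above every ICAM1low library for 12 of the 32 genes (23.4% of all genes) and below for 4 (18% of all genes). At least a 2-fold change was reached by 8 of the genes called higher (15.1% of all genes) and by 4 of those called lower (12.1% of all genes). The count of lower genes was 3 without ICAM1high replicate 2 and 3 without ICAM1low replicate 3, and 7 with ICAM1high replicate 1 and ICAM1low replicate 4 both left out, with 12 higher in that last case. Over all genes tested in these fits, 2157 of 14446, 2365 of 14408 and 3441 of 14050 were lower, and 3586 were higher in the last. Scaling by library totals in place of TMM, the scaling used here, moved the median of all genes from 0.08 to 0.76 and the share of calls that were higher from 53.6 to 89.0%. On that scale 17 of the 32 genes were higher, among them Slc7a6os, which is no transporter, and 1, Slc38a3, was lower. Over all 14051 genes tested, 6818 were higher and 839 were lower with library totals. The calls of Slc7a6, Slc1a4, Slc6a2 and Slc36a4 held in 8, 9, 10 and 11 of 21 alternative fits, and that of Slc6a15 in 8 of the 19 in which it was tested. Fold changes below are on the TMM scale.

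**Figure D1:**
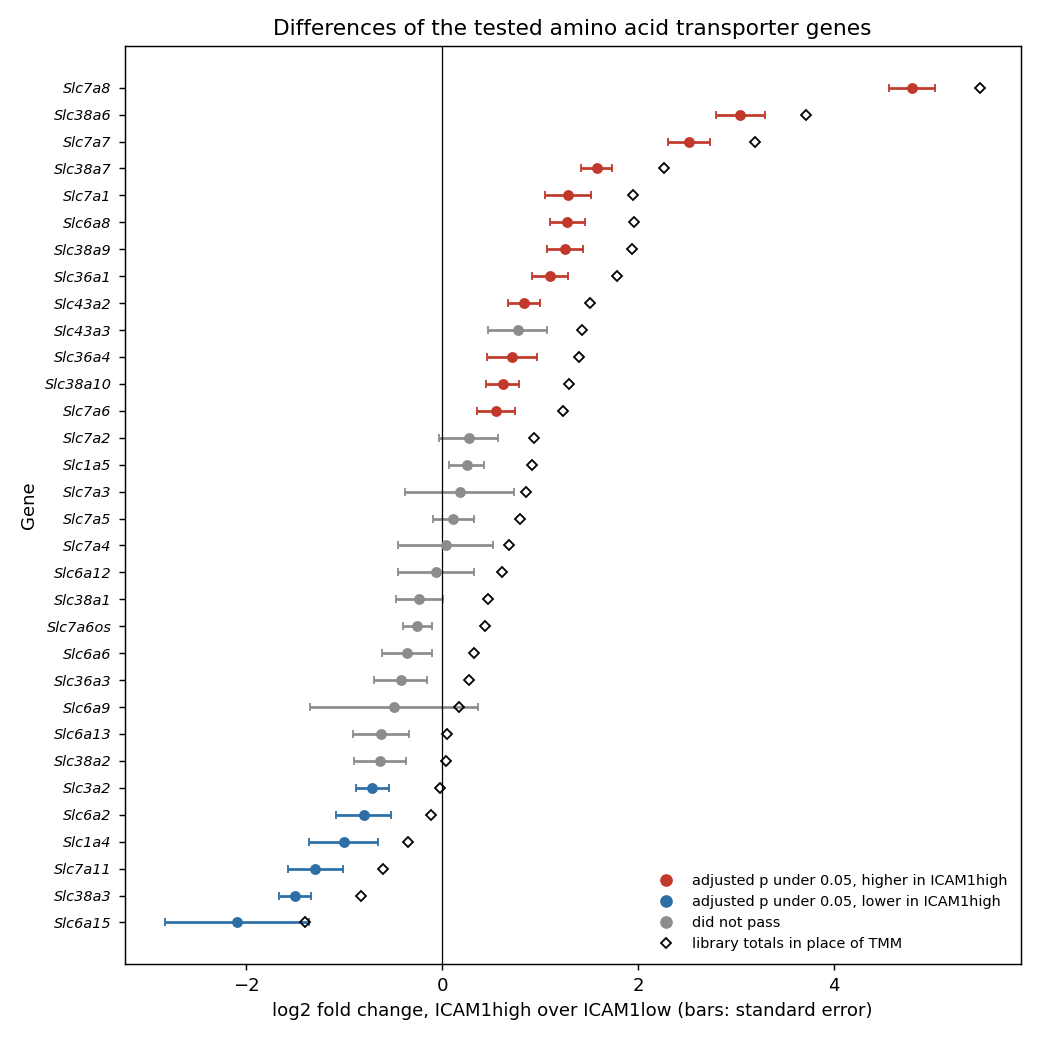
Log2 fold change, ICAM1high over ICAM1low, of the 32 tested genes of the transporter families, one row per gene, with bars for the standard error and colours for the edgeR call; diamonds give the value with library totals in place of TMM. Slc7a8 is highest at 4.80 and Slc6a15 lowest at -2.10, and the diamonds of the genes lower in ICAM1high lie nearer to 0 than their circles.

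The heavy chain was lower in ICAM1high. Slc3a2 was at 369, 297, 308 and 248 CPM in ICAM1high replicates 1 to 4 and at 422, 464, 528 and 587 CPM in ICAM1low replicates 1 to 4. Every ICAM1high library lay below every ICAM1low library, with a log2 fold change of -0.71 (adjusted p = 0.00726, SE 0.17) for this gene (ENSMUSG00000010095, mm10 chromosome 19, 8706882 to 8723369, minus strand). The difference did not pass in replicates 1 and 2 alone (-0.41, adjusted p = 0.339), nor with library totals, where it was -0.02 (adjusted p = 0.914).

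Among the light chains, Slc7a8 and Slc7a7 rose and Slc7a11 fell in ICAM1high, so that the make-up of the light-chain transcripts differed between the fractions. Slc7a8, which encodes LAT2, an exchanger of neutral amino acids, had the largest fold change of all tested genes of these families. Slc7a8 was at 53.4, 81.5, 78.8 and 67.2 CPM in ICAM1high replicates 1 to 4 and at 3.01, 2.75, 1.73 and 2.62 CPM in ICAM1low replicates 1 to 4. The fractions lay far apart, at 70.2 ± 12.8 against 2.53 ± 0.558 CPM (SD, n = 4), with a log2 fold change of 4.80 (adjusted p = 1.11e-06, SE 0.24) (ENSMUSG00000022180, mm10 chromosome 14, 54722209 to 54781946, minus strand). Slc7a7 encodes y+LAT1, which exports cationic amino acids such as arginine in exchange for neutral ones. Slc7a7 was at 45.8, 39.2, 35.9 and 27.4 CPM in ICAM1high replicates 1 to 4 and at 6.68, 7.77, 5.06 and 6.30 CPM in ICAM1low replicates 1 to 4. All ICAM1high libraries were again above all ICAM1low libraries, and the log2 fold change was 2.52 (adjusted p = 1.73e-05, SE 0.21) (ENSMUSG00000000958, mm10 chromosome 14, 54369442 to 54417780, minus strand). Slc7a7 shares 232 bases with Oxa1l on the opposite strand, no source used here says whether counting used strand, and Oxa1l was itself higher by 1.03 (adjusted p = 0.00465, SE 0.23).

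Slc7a11, the light chain of xCT, went the other way. Slc7a11 was at 224, 232, 421 and 372 CPM in ICAM1high replicates 1 to 4 and at 974, 528, 989.8 and 569.5 CPM in ICAM1low replicates 1 to 4. The lowest ICAM1low library lay above the highest ICAM1high library, and the log2 fold change was -1.29 (adjusted p = 0.00479, SE 0.28) (ENSMUSG00000027737, mm10 chromosome 3, 49892526 to 50443614, minus strand). It did not pass in replicates 3 and 4 alone (-1.02, adjusted p = 0.0592) or with library totals (-0.61, adjusted p = 0.0968). Slc7a5, which encodes LAT1, the carrier of large neutral amino acids in activated lymphocytes and many tumours, did not pass. Slc7a5 was at 16.8, 26.6, 20.8 and 25.9 CPM in ICAM1high replicates 1 to 4 and at 17.02, 26.9, 20.8 and 18.4 CPM in ICAM1low replicates 1 to 4, so the fractions overlapped, with a log2 fold change of 0.11 (adjusted p = 0.692, SE 0.21). With library totals Slc7a5 passed as higher (0.80, adjusted p = 0.0194).

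Slc7a6, which encodes the related exchanger y+LAT2, was slightly higher. Slc7a6 was at 16, 19.7, 16.4 and 18.4 CPM in ICAM1high replicates 1 to 4 and at 14.1, 11.2, 13.7 and 8.99 CPM in ICAM1low replicates 1 to 4. The groups did not overlap, and the log2 fold change was 0.55 (adjusted p = 0.0413, SE 0.19). This call lay near the threshold and was lost when any 1 of several libraries was left out. The adjusted p was 0.132 without ICAM1high replicate 2, 0.0786 without ICAM1high replicate 3, 0.0931 without ICAM1high replicate 4, 0.0964 without ICAM1low replicate 2, 0.052 without ICAM1low replicate 3 and 0.0715 without ICAM1low replicate 4. The log2 fold change was then between 0.43 and 0.62. Slc7a6os, the neighbouring gene that is no transporter, was at 39.7 ± 4.11 against 47.4 ± 4.81 CPM (SD, n = 4) and did not pass, at -0.25 (adjusted p = 0.185, SE 0.15), although it passed as higher with library totals (0.43, adjusted p = 0.0292). Slc7a6os had a level of 44.97, 39.6, 39.4 and 34.9 CPM in ICAM1high replicates 1 to 4 and of 41.1, 46.7, 49.4 and 52.4 CPM in ICAM1low replicates 1 to 4.

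Levels of different genes were set side by side only per length, as CPM per kilobase of the deposited gene length. Slc7a11 made up 82.7 ± 5.76% of the summed light-chain level in ICAM1low and 38.3 ± 8.21% in ICAM1high (SD, n = 4). It ran from 75.0 to 87.1% in the ICAM1low libraries and from 29.7 to 45.8% in the ICAM1high libraries. Slc7a8 made up 0.825 ± 0.308% in ICAM1low and 24.3 ± 3.17% in ICAM1high, and Slc7a7 3.20 ± 1.25% and 19.9 ± 6.39%. The share of Slc7a7 in ICAM1high was 28.4% in replicate 1 and 13.9% in replicate 4. Slc7a5 held 9.20 ± 3.85% and 10.6 ± 1.99%, and Slc7a6 4.07 ± 0.542% and 6.76 ± 0.958%. These shares are descriptions with no test. Slc3a2 stood at 1.18 to 2.15 times the summed light chains in ICAM1high and 1.49 to 3.31 times in ICAM1low, ranges that overlap.

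**Figure D2:**
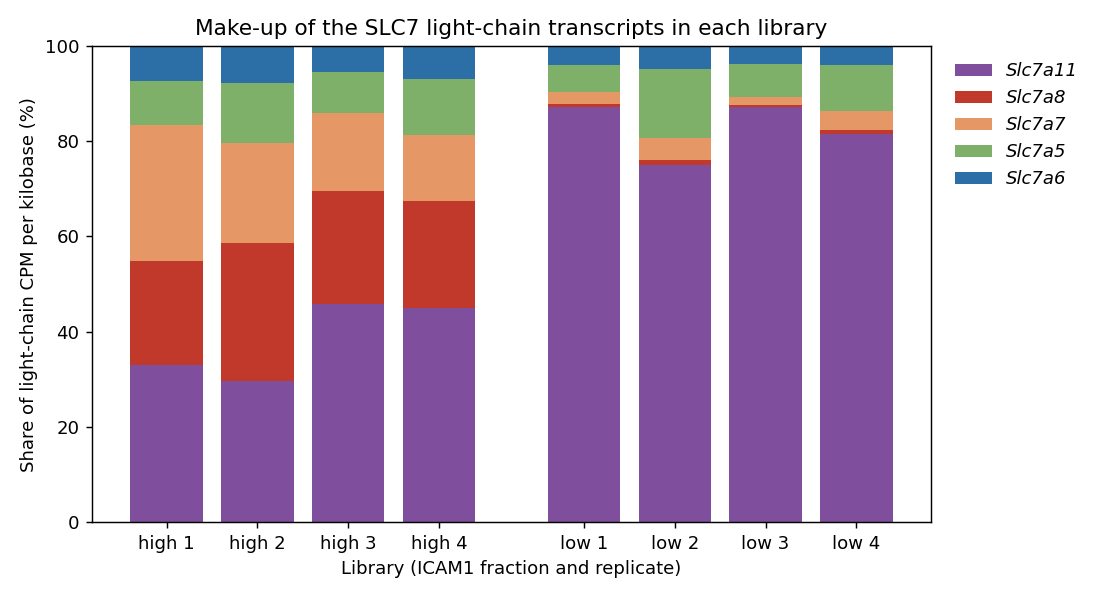
Share of each SLC7 light chain in the summed light-chain CPM per kilobase, one stacked bar per library, with the 4 ICAM1high libraries on the left and the 4 ICAM1low libraries on the right. Slc7a11 fills 75.0 to 87.1% of the ICAM1low bars and 29.7 to 45.8% of the ICAM1high bars, and Slc7a8 is at 1.09% or less in every ICAM1low bar.

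The letters upstream of 3 of these genes are shown because Slc7a11 is a known target of ATF4, the transcription factor of the amino acid deprivation response, and because ATF4 transcripts were measured here too. Promoter windows from RefSeq (GRCm38.p6, 250 bases before to 50 after each start) were found for 46 of the 64 genes. They were searched on both strands for TGATGNAA, the element bound by ATF4 with a C/EBP partner. It was found for 4 of these 46 genes, Slc1a4, Slc6a21, Slc7a7 and Slc7a11, in 5 of their 67 windows, and in 3.97% of all 32851 windows. In the stretches below, written 5′ to 3′ on the strand of the gene, capitals mark the matches.
Slc7a11 (chr3:50443634-50443703, minus strand): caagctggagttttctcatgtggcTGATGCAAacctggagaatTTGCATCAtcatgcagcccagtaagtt
Slc1a4 (chr11:20332710-20332763, minus strand): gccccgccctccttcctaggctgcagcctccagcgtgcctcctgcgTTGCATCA
Slc7a7 (chr14:54418055-54418109, minus strand): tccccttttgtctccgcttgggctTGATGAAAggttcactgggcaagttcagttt
Slc7a11 held 2 matches, whose first bases lay 66 and 47 bases before the start, on opposite strands. Slc1a4 had 1 match that began 4 bases before the start, and the Slc7a7 match shown began 141 bases before one of its starts. The windows of Slc7a7 also held TGATGCAA, the letters found in Slc7a11, from 1 base before the same start, a site not shown. Slc7a11 and Slc1a4 were lower and Slc7a7 was higher in ICAM1high. A link between the matches and these differences was not tested. The core of the antioxidant element, TGACNNNGC, was found for 9 of the 46 genes, in 11 of the 67 windows, and in 12.39% of all windows; the windows of Slc7a11 did not hold these letters. A match is a description of the letters and not a binding site.

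Cationic amino acid transporters import arginine and lysine. Slc7a1, which encodes CAT1, the widespread member, was higher in ICAM1high. Slc7a1 was at 17.3, 20.4, 18.97 and 22.6 CPM in ICAM1high replicates 1 to 4 and at 10.1, 9.23, 8.28 and 4.93 CPM in ICAM1low replicates 1 to 4. The groups did not overlap, with a log2 fold change of 1.28 (adjusted p = 0.00175, SE 0.24), although replicates 1 and 2 alone gave 0.96 (adjusted p = 0.0628). Slc7a2 encodes CAT2, the carrier known from activated macrophages. Slc7a2 was at 28.5, 33.1, 57.7 and 40.1 CPM in ICAM1high replicates 1 to 4 and at 35.7, 35.9, 43.9 and 16.6 CPM in ICAM1low replicates 1 to 4, and the groups overlapped, with a log2 fold change of 0.27 (adjusted p = 0.503, SE 0.30). It passed as higher with library totals (0.94, adjusted p = 0.0331). Slc7a3 and Slc7a4 were at 0.785 and 0.956 CPM in ICAM1high and 0.687 and 0.936 CPM in ICAM1low on average, and neither passed (0.18 and 0.04, adjusted p = 0.822 and 0.959). Slc7a4 overlaps P2rx6 on the opposite strand, which held 17.7% as many counts.

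Among 7 tested SLC38 genes, 4 were higher (22.6% of all genes), 1 was lower (19.6% of all genes) and 2 did not pass. The higher ones include the lysosomal members of the family. Slc38a6, whose substrates are poorly defined, rose most. Slc38a6 was at 16.9, 20.5, 19.4 and 16.9 CPM in ICAM1high replicates 1 to 4 and at 1.83, 3.30, 1.84 and 1.93 CPM in ICAM1low replicates 1 to 4. The ICAM1high libraries were all far above, with a log2 fold change of 3.04 (adjusted p = 1.41e-05, SE 0.25) (ENSMUSG00000044712, mm10 chromosome 12, 73286779 to 73354049, plus strand). Slc38a7 encodes SNAT7, which exports glutamine and asparagine from lysosomes. Slc38a7 was at 25.3, 28.9, 29.8 and 23.9 CPM in ICAM1high replicates 1 to 4 and at 8.95, 9.05, 9.03 and 9.05 CPM in ICAM1low replicates 1 to 4. The ICAM1low libraries were almost level and the ICAM1high libraries clearly above them, with a log2 fold change of 1.58 (adjusted p = 4.78e-05, SE 0.16). Slc38a9 encodes the lysosomal arginine sensor that signals to mTORC1. Slc38a9 was at 18.4, 17.8, 16.4 and 20.97 CPM in ICAM1high replicates 1 to 4 and at 9.02, 7.16, 7.59 and 6.99 CPM in ICAM1low replicates 1 to 4. Its groups did not overlap either, with a log2 fold change of 1.25 (adjusted p = 0.000413, SE 0.18). Slc38a6, Slc38a7 and Slc38a9 passed as higher in all 21 alternative fits.

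Slc38a10, which encodes a carrier of glutamine, glutamate and aspartate, was higher by a smaller amount. Slc38a10 was at 83.8, 117, 107 and 99.2 CPM in ICAM1high replicates 1 to 4 and at 72.4, 76.6, 62.8 and 52.9 CPM in ICAM1low replicates 1 to 4. The groups did not overlap, with a log2 fold change of 0.62 (adjusted p = 0.0134, SE 0.17), and the adjusted p was 0.056 without ICAM1high replicate 2 (0.53), and 0.322 in replicates 1 and 2 alone (0.43). Slc38a3 encodes SNAT3, which moves glutamine, asparagine and histidine and can run in either direction. It was the one SLC38 gene lower in ICAM1high. Slc38a3 was at 8.27, 7.54, 7.38 and 7.09 CPM in ICAM1high replicates 1 to 4 and at 22.96, 23.2, 20.5 and 19.3 CPM in ICAM1low replicates 1 to 4. Every ICAM1high library lay below every ICAM1low library, with a log2 fold change of -1.50 (adjusted p = 8.62e-05, SE 0.17) (ENSMUSG00000010064, mm10 chromosome 9, 107650634 to 107669530, minus strand), and it passed as lower in all 21 alternative fits. The glutamine and alanine importers SNAT1 and SNAT2, encoded by Slc38a1 and Slc38a2, did not pass. Slc38a1 was at 76.4, 135, 169 and 117 CPM in ICAM1high replicates 1 to 4 and at 179, 114, 159 and 133 CPM in ICAM1low replicates 1 to 4. Slc38a2 was at 199.9, 306, 334 and 309 CPM in ICAM1high replicates 1 to 4 and at 604, 430.1, 501 and 248 CPM in ICAM1low replicates 1 to 4. Both genes overlapped between fractions, with log2 fold changes of -0.23 (adjusted p = 0.465, SE 0.24) and -0.63 (adjusted p = 0.0772, SE 0.27). ICAM1low replicate 4 was the lowest of its group for Slc38a2, and without that library the gene passed as lower (-0.83, adjusted p = 0.00762). It also passed with DESeq2 and without both ICAM1low replicate 4 and ICAM1high replicate 1. With library totals Slc38a1 turned to 0.47 and Slc38a2 to 0.04, and neither passed.

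Of the SLC36 family, 2 of 3 tested genes were higher (22.6% of all genes). Slc36a1 encodes PAT1, which moves small neutral amino acids out of lysosomes. Slc36a1 was at 33.6, 42.7, 49.9 and 47.2 CPM in ICAM1high replicates 1 to 4 and at 25.5, 18.2, 17.6 and 19.6 CPM in ICAM1low replicates 1 to 4. The groups did not overlap, with a log2 fold change of 1.10 (adjusted p = 0.00105, SE 0.18), and replicates 1 and 2 alone gave 0.81 (adjusted p = 0.092). Slc36a4 encodes PAT4, a carrier of proline and tryptophan. Slc36a4 was at 13.7, 23.04, 21.5 and 22.9 CPM in ICAM1high replicates 1 to 4 and at 8.22, 15.8, 14.5 and 10.7 CPM in ICAM1low replicates 1 to 4. ICAM1high replicate 1 overlapped the ICAM1low range, and the log2 fold change was 0.72 (adjusted p = 0.043, SE 0.25). The adjusted p was 0.121 without ICAM1high replicate 2, 0.101 without ICAM1high replicate 3, 0.103 without ICAM1high replicate 4, 0.0898 without ICAM1low replicate 1, 0.0564 without ICAM1low replicate 3 and 0.0732 without ICAM1low replicate 4. The log2 fold change was then between 0.57 and 0.80. Slc36a3, known from testis, did not pass, at -0.42 (adjusted p = 0.237, SE 0.27). Slc36a3 was at 12.5, 8.22, 6.999 and 9.23 CPM in ICAM1high replicates 1 to 4 and at 9.39, 11.2, 10.2 and 18.7 CPM in ICAM1low replicates 1 to 4, and the groups overlapped. Its opposite-strand gene Slc36a3os held 25.6% as many counts. The sign of Slc36a3 turned to 0.27 with library totals.

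Both tested SLC43 genes had higher means in ICAM1high, and 1 passed as higher (22.6% of all genes). Slc43a2 encodes LAT4, a carrier of branched-chain amino acids, phenylalanine and methionine. Slc43a2 was at 119, 156, 148 and 145 CPM in ICAM1high replicates 1 to 4 and at 93.2, 85.7, 77.2 and 62.9 CPM in ICAM1low replicates 1 to 4. The groups did not overlap, with a log2 fold change of 0.83 (adjusted p = 0.00257, SE 0.16), and replicates 1 and 2 alone gave 0.62 (adjusted p = 0.158). Slc43a3 did not pass although its groups did not overlap. Slc43a3 was at 8.56, 6.90, 8.35 and 8.92 CPM in ICAM1high replicates 1 to 4 and at 4.33, 6.67, 5.75 and 2.37 CPM in ICAM1low replicates 1 to 4, with a log2 fold change of 0.77 (adjusted p = 0.0619, SE 0.30). It passed as higher with limma-voom (0.85, adjusted p = 0.0409), without ICAM1low replicate 2 (0.97, adjusted p = 0.039) and with library totals (1.43, adjusted p = 0.00438).

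In the SLC1 family the carriers of neutral amino acids were measurable and the glutamate carriers Slc1a1, Slc1a2, Slc1a3, Slc1a6 and Slc1a7 were not tested, with at most 24 counts in any library. Slc1a5 encodes ASCT2, a glutamine exchanger. Slc1a5 was at 29.8, 31.6, 24.3 and 27.9 CPM in ICAM1high replicates 1 to 4 and at 21.8, 28.5, 26.4 and 18.9 CPM in ICAM1low replicates 1 to 4, and the groups overlapped, with a log2 fold change of 0.25 (adjusted p = 0.278, SE 0.18). It passed as higher with library totals (0.92, adjusted p = 0.00379). Slc1a4 encodes ASCT1, an exchanger of alanine, serine, cysteine and threonine. Slc1a4 was at 1.69, 1.92, 2.70 and 1.98 CPM in ICAM1high replicates 1 to 4 and at 5.06, 4.95, 4.66 and 1.997 CPM in ICAM1low replicates 1 to 4. ICAM1low replicate 4 fell into the ICAM1high range, and the log2 fold change was -1.01 (adjusted p = 0.0401, SE 0.35). The adjusted p was 0.0708 without ICAM1high replicate 1, 0.0942 without ICAM1high replicate 2, 0.078 without ICAM1high replicate 4, 0.0929 without ICAM1low replicate 1, 0.0973 without ICAM1low replicate 2 and 0.0885 without ICAM1low replicate 3. The log2 fold change was then between -1.0 and -0.90.

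Of 7 tested SLC6 genes, 1 was higher (22.6% of all genes), 2 were lower (19.6% of all genes) and 4 did not pass. Slc6a8, which encodes the creatine transporter, was higher. Slc6a8 was at 22.9, 27.2, 33.6 and 26.1 CPM in ICAM1high replicates 1 to 4 and at 11.1, 13.03, 10.99 and 10.2 CPM in ICAM1low replicates 1 to 4. The groups did not overlap, with a log2 fold change of 1.28 (adjusted p = 0.000363, SE 0.18), which passed in all 21 alternative fits. Slc6a6 encodes the taurine transporter, and taurine is the most abundant free amino acid of neutrophils. Slc6a6 was at 208, 357, 410.4 and 375 CPM in ICAM1high replicates 1 to 4 and at 596, 383, 452 and 296 CPM in ICAM1low replicates 1 to 4, and the groups overlapped, with a log2 fold change of -0.36 (adjusted p = 0.289, SE 0.26). The sign turned with library totals (0.33) and in replicates 3 and 4 alone (0.03), without passing.

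The remaining SLC6 genes were at low levels. Slc6a2 encodes the noradrenaline transporter. Slc6a2 was at 3.17, 2.85, 3.96 and 1.91 CPM in ICAM1high replicates 1 to 4 and at 4.18, 5.26, 6.21 and 5.18 CPM in ICAM1low replicates 1 to 4. The ICAM1high libraries all lay below the ICAM1low libraries, with a log2 fold change of -0.80 (adjusted p = 0.0406, SE 0.28). The adjusted p was 0.0502 without ICAM1high replicate 1, 0.0965 without ICAM1high replicate 2, 0.0888 without ICAM1high replicate 4, 0.0766 without ICAM1low replicate 2 and 0.102 without ICAM1low replicate 3. The log2 fold change was then between -0.86 and -0.66. Slc6a15, a carrier of branched-chain amino acids and proline, had 1 to 10 counts in ICAM1high libraries and 8 to 30 in ICAM1low libraries, so the groups overlapped. Its log2 fold change was -2.10 (adjusted p = 0.0404, SE 0.73). The adjusted p was 0.0636 without ICAM1high replicate 1, 0.113 without ICAM1high replicate 2, 0.0879 without ICAM1high replicate 3, 0.0846 without ICAM1low replicate 1, 0.0757 without ICAM1low replicate 3 and 0.0606 without ICAM1low replicate 4, with log2 fold changes of -2.20 to -1.74, and without ICAM1high replicate 4 the log2 fold change was -2.73 (adjusted p = 0.0251).

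The carriers of GABA and related molecules did not pass. Slc6a12 encodes a betaine and GABA carrier. Slc6a12 was at 3.66, 1.32, 3.09 and 2.13 CPM in ICAM1high replicates 1 to 4 and at 2.42, 1.90, 3.91 and 2.43 CPM in ICAM1low replicates 1 to 4, and its log2 fold change was -0.06 (adjusted p = 0.913, SE 0.39). Slc6a13 encodes a GABA and taurine carrier. Slc6a13 was at 5.47, 2.43, 3.19 and 3.66 CPM in ICAM1high replicates 1 to 4 and at 5.36, 4.89, 6.10 and 6.43 CPM in ICAM1low replicates 1 to 4, and its log2 fold change was -0.62 (adjusted p = 0.1, SE 0.28). Without ICAM1high replicate 1, the highest of its group, Slc6a13 passed as lower (-0.92, adjusted p = 0.0192), as it did with ICAM1low replicate 4 left out too (-0.86, adjusted p = 0.0184), and with library totals it turned to 0.05. Slc6a9, the glycine transporter GlyT1, had 0 to 28 counts per library and did not pass, at -0.49 (adjusted p = 0.672, SE 0.85); it overlaps B4galt2 on the opposite strand, which held 116% as many counts.

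**Figure D3:**
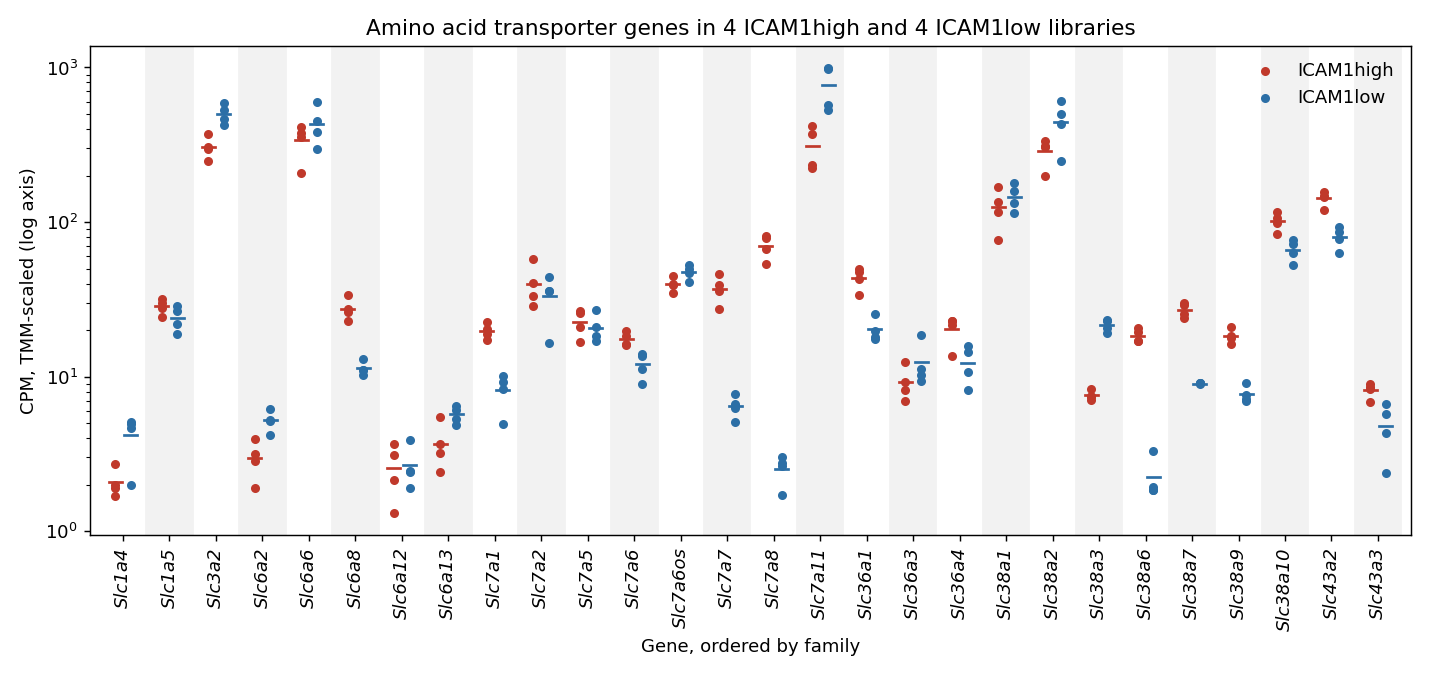
CPM of the 28 genes of the transporter families whose average log2 CPM was at least 1, on a log axis, with 1 point per library and a bar for the mean of each fraction (ICAM1high red, ICAM1low blue). The points of Slc7a8, Slc38a6, Slc7a7 and Slc38a7 lie in separate ranges for the fractions, whereas those of Slc38a1, Slc7a5 and Slc6a6 intermingle.

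Ordered by CPM per kilobase, the same 4 genes were at the top of both fractions. In ICAM1high they were Slc3a2 at 86.6, Slc6a6 at 39.9, Slc38a2 at 32.5 and Slc7a11 at 22.4. In ICAM1low they were Slc3a2 at 142, Slc7a11 at 54.96, Slc6a6 at 51.1 and Slc38a2 at 50.4. Slc3a2 stood above the others in every library, with 70.2 to 105 in ICAM1high and 120 to 166 in ICAM1low. The 3 that followed overlapped in their ranges, with 35.0 to 70.5 for Slc6a6, 28.0 to 68.3 for Slc38a2 and 37.9 to 71.1 for Slc7a11 in ICAM1low. Slc38a10, Slc43a2 and Slc7a8 came next in ICAM1high at 15.8, 14.1 and 14.02, with ranges of 13.1 to 18.2, 11.9 to 15.5 and 10.7 to 16.3 that overlap. Slc7a8 held place 7 of the 64 genes in ICAM1high and place 26 in ICAM1low, where it was at 0.505. Slc7a7 held place 8 and place 19.

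Genes of mTORC1, its regulators and its amino acid sensing at the lysosome were mixed. Of 38 tested, 7 were higher (22.6% of all genes) and 8 were lower (19.6% of all genes). Their median log2 fold change was 0.29, beside 0.08 over all genes. Sesn2, a leucine sensor that restrains mTORC1, was lower. Sesn2 was at 36.8, 38.02, 38.9 and 47.6 CPM in ICAM1high replicates 1 to 4 and at 165, 218, 189 and 209 CPM in ICAM1low replicates 1 to 4, with a log2 fold change of -2.28 (adjusted p = 5.78e-06, SE 0.16). Rptor, the scaffold of mTORC1, and Sesn1, a relative of Sesn2, were higher. Rptor was at 19.1, 32.6, 34.9 and 31.3 CPM in ICAM1high replicates 1 to 4 and at 8.36, 6.18, 8.11 and 3.62 CPM in ICAM1low replicates 1 to 4. Sesn1 was at 18.2, 19.1, 19.2 and 13.8 CPM in ICAM1high replicates 1 to 4 and at 5.80, 7.16, 5.81 and 2.68 CPM in ICAM1low replicates 1 to 4. Their log2 fold changes were 2.17 (adjusted p = 0.000314, SE 0.29) and 1.71 (adjusted p = 0.00101, SE 0.29), and neither gene overlapped between fractions. With library totals 24 of the list were higher and 1 was lower, beside 6818 and 839 of all 14051 genes tested. With ICAM1high replicate 1 and ICAM1low replicate 4 both left out 13 were higher, beside 3586 of all 14050 genes tested.

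Of 29 genes of the amino acid deprivation response, 10 were higher (22.6% of all genes) and 9 were lower (19.6% of all genes). Their median was 0.14. Ddit3, which encodes CHOP, and Cebpb, a partner of ATF4, were lower, and Eif2ak4, the kinase GCN2 that senses uncharged tRNA, was higher. Ddit3 was at 69.4, 46.6, 54.4 and 47.05 CPM in ICAM1high replicates 1 to 4 and at 151, 129.9, 161 and 189.8 CPM in ICAM1low replicates 1 to 4. Cebpb was at 2916, 1646, 1468 and 1558 CPM in ICAM1high replicates 1 to 4 and at 5581, 7801, 7590 and 12370 CPM in ICAM1low replicates 1 to 4. Eif2ak4 was at 13.4, 15.1, 17.04 and 18.1 CPM in ICAM1high replicates 1 to 4 and at 5.94, 6.97, 5.98 and 4.24 CPM in ICAM1low replicates 1 to 4. None of the 3 overlapped between fractions, and their log2 fold changes were -1.54 (adjusted p = 0.000143, SE 0.18), -2.14 (adjusted p = 0.000366, SE 0.30) and 1.46 (adjusted p = 0.000472, SE 0.21). Atf4 itself was lower by a small amount, at -0.54 (adjusted p = 0.0399, SE 0.19). Asns, the asparagine synthetase induced by ATF4, was at -1.09 (adjusted p = 0.00541, SE 0.25). Shmt2 and Mthfd2, enzymes of the same list, were higher, at 1.12 and 1.05 (adjusted p = 0.00329 and 0.00337). Psat1 was higher too, at 0.79 (adjusted p = 0.0298), and Phgdh was lower, at -1.89 (adjusted p = 0.0015). Atf4, Asns, Shmt2, Mthfd2, Psat1 and Phgdh were picked after their values were seen. The count of higher genes was 5 without ICAM1high replicate 2 and 5 without ICAM1high replicate 3, beside 2345 of all 14446 and 2431 of all 14430 genes tested. With library totals 16 were higher and 3 lower, beside 6818 and 839 of all 14051 genes tested.

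Enzymes of glutathione, glutamine and glutamate gave 4 of 19 higher (22.6% of all genes) and 5 lower (19.6% of all genes), with a median of -0.40. Cndp2, a dipeptidase that splits cysteinylglycine, and Got1, the cytosolic aspartate aminotransferase, were higher, and Ggt5, a gamma-glutamyl transferase, was lower. Cndp2 was at 158, 133, 128 and 110.0 CPM in ICAM1high replicates 1 to 4 and at 23.4, 24.6, 24.4 and 29.3 CPM in ICAM1low replicates 1 to 4. Got1 was at 41.8, 40.03, 44.9 and 37.1 CPM in ICAM1high replicates 1 to 4 and at 13.3, 12.8, 15.5 and 14.2 CPM in ICAM1low replicates 1 to 4. Ggt5 was at 36.2, 30.3, 26.7 and 25.8 CPM in ICAM1high replicates 1 to 4 and at 83.2, 69.4, 77.1 and 99.5 CPM in ICAM1low replicates 1 to 4. All 3 were separate between fractions, with log2 fold changes of 2.38 (adjusted p = 5.57e-06, SE 0.16), 1.55 (adjusted p = 3.56e-05, SE 0.15) and -1.47 (adjusted p = 0.000135, SE 0.17). Of 15 tested enzymes of branched-chain amino acids and tryptophan, 6 were higher (22.6% of all genes) and 0 were lower (19.6% of all genes). Their median was 0.83. Bcat2, the mitochondrial branched-chain aminotransferase, Dbt, the E2 subunit of the branched-chain keto acid dehydrogenase, and its kinase Bckdk were higher by 1.11 (adjusted p = 0.00249, SE 0.22), 2.10 (adjusted p = 0.00274, SE 0.42) and 1.04 (adjusted p = 0.00443, SE 0.23). Bcat2 was at 30.2, 20.3, 19.3 and 17.4 CPM in ICAM1high replicates 1 to 4 and at 8.22, 10.7, 10.2 and 11.4 CPM in ICAM1low replicates 1 to 4. Dbt was at 3.42, 8.05, 6.47 and 4.96 CPM in ICAM1high replicates 1 to 4 and at 1.91, 1.16, 1.73 and 0.562 CPM in ICAM1low replicates 1 to 4. Bckdk was at 23.2, 17.5, 15.7 and 15.4 CPM in ICAM1high replicates 1 to 4 and at 6.02, 9.29, 10.1 and 9.55 CPM in ICAM1low replicates 1 to 4. These 3 genes did not overlap between fractions but failed the threshold in replicates 3 and 4 alone. With ICAM1high replicate 1 and ICAM1low replicate 4 both left out, 8 glutathione, glutamine and glutamate enzymes were lower, beside 3441 of all 14050 genes tested.

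Of 23 tested amino acid carriers of other families, 6 were higher (22.6% of all genes) and 2 were lower (19.6% of all genes). Their median was 0.27. Mfsd12, which is needed for cysteine import into lysosomes and melanosomes, and Slc16a10, an aromatic amino acid carrier, were higher, and Slc15a3, a lysosomal carrier of histidine and peptides, was lower. Mfsd12 was at 41.3, 45.3, 42.5 and 34.2 CPM in ICAM1high replicates 1 to 4 and at 9.61, 11.5, 7.76 and 12.4 CPM in ICAM1low replicates 1 to 4. Slc16a10 was at 30.4, 32.8, 28.04 and 34.4 CPM in ICAM1high replicates 1 to 4 and at 7.70, 8.32, 10.6 and 10.98 CPM in ICAM1low replicates 1 to 4. Slc15a3 was at 567, 413, 522 and 447 CPM in ICAM1high replicates 1 to 4 and at 1489, 1347, 1874 and 1786 CPM in ICAM1low replicates 1 to 4. Each was separate between fractions, with log2 fold changes of 1.98 (adjusted p = 3.83e-05, SE 0.19), 1.74 (adjusted p = 5.91e-05, SE 0.18) and -1.74 (adjusted p = 4.64e-05, SE 0.17). The count of higher genes was 3 without ICAM1high replicate 2 and 3 without ICAM1high replicate 3, beside 2345 of all 14446 and 2431 of all 14430 genes tested. It was 13 with library totals, beside 6818 of all 14051 genes tested.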

How the data were processed

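Each of the 8 mRNA libraries was made from 100 ng of total RNA. The deposited table holds read counts per gene, whole numbers that the authors left without normalization, with gene names, positions and the gene length in bases, an other quantity used only for levels per kilobase. This length equalled the summed exon length of GENCODE M21 for 61 of the 64 genes. The submitters' processing notes name HISAT2 and mm10; the aligner's version, the strand setting, the filters, the tool that counted reads and its annotation were not given in the sources used here. Reads where genes overlap on opposite strands may have gone to either gene. Library totals ran from 10328575 to 22751975 counts and limit the precision of low values.

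In R 4.3.3, filterByExpr by group kept 14051 genes, TMM set the scaling, and the unpaired test was edgeR's quasi-likelihood F test (version 4.0.16). Benjamini-Hochberg adjustment ran over all of these genes, with 0.05 as the threshold. Log2 fold changes are of ICAM1high over ICAM1low, their standard error is the absolute value over the square root of F, and CPM rest on TMM-scaled library sizes. The procedure was tested on simulated data in which few genes differed, in both directions. That test cannot check the scaling where many genes differ, as they do here. The transporter genes, the pathway and marker lists and the tests were chosen with earlier results of these data known. Every transporter gene kept by the filter is named, with its value in every library where its average log2 CPM was at least 1, and so are the 3 genes of each pathway list with the smallest p at that level; genes picked after their values were seen are marked so. Alternatives were DESeq2 1.42.0, limma-voom (limma 3.58.1), scaling by RLE, upper quartile or library totals, no filter or one of 50 counts in 4 libraries, robust dispersion, the replicate number as a block, the run of library numbers as a term or each run alone, and libraries left out. Leaving out Slc7a6os and using coding transcript lengths were added after the data were seen. Protein sequences were not used here.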

Additional observations from a re-analysis of the deposited data

Results flagged for a closer look

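In 74 groups of 4 values (CPM of the 32 tested genes and shares of 5 light chains in each fraction), 3 held a library far from the other 3, and chance flags about 1 in 20 such groups. Slc1a4 was at 2.00 CPM in ICAM1low replicate 4 and at 4.66 to 5.06 in the other ICAM1low libraries. Slc36a4 was at 13.7 CPM in ICAM1high replicate 1 and at 21.5 to 23.0 in the other ICAM1high libraries. Slc38a6 was at 3.30 CPM in ICAM1low replicate 2 and at 1.83 to 1.93 in the other ICAM1low libraries.

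The naming rule also met 3 antisense rows that are not protein_coding. Slc36a3os held 397 counts over the 8 libraries, 22 to 106 in each, above the 3 counts per library that a count of 0 allows. The other two, Slc36a1os and Slc6a19os, were at 0.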

How the results depend on the processing

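Of the 18 transporter genes called, 7 (Slc6a8, Slc7a7, Slc7a8, Slc38a6, Slc38a7 and Slc38a9 higher, Slc38a3 lower) kept direction and call in all 21 alternative fits, and the other 11 kept direction wherever they were tested, which for Slc6a15 was in 19 of them. With library totals 6818 of all 14051 genes tested were higher and 839 were lower. The counts of higher and lower genes were then 17 and 1 for the transporter families, with Slc7a6os, no transporter, among the 17 (adjusted p = 0.0292). They were 24 and 1 for the mTORC1 list and 16 and 3 for the deprivation response. On that scale 3 glutathione, glutamine and glutamate enzymes were lower, and 12 branched-chain and tryptophan enzymes and 13 other carriers were higher. With library totals Slc36a3 turned to 0.27, Slc38a1 to 0.47, Slc38a2 to 0.042, Slc6a12 to 0.61, Slc6a13 to 0.049, Slc6a6 to 0.33, Slc6a9 to 0.18 and Slc7a6os to 0.43. Slc7a4 was at -0.023 with DESeq2, -0.014 with limma-voom, -0.025 with RLE, -0.34 in replicates 3 and 4 alone and -0.56 with ICAM1high replicate 1 and ICAM1low replicate 4 both left out, and Slc6a9 was at 0.31 with limma-voom. Without those 2 libraries Slc6a12 was at -0.37, 13 mTORC1 genes were higher and 8 glutathione, glutamine and glutamate enzymes and 1 branched-chain or tryptophan enzyme were lower. Over all 14050 genes tested in that fit, 3586 were higher and 3441 were lower. In replicates 1 and 2 alone, 3124 genes of the whole table were called, with 7 transporters higher and 3 lower, 1 mTORC1 gene lower, 2 deprivation genes higher and 5 lower, and 3 other carriers higher; Slc36a3 was at 0.004, Slc6a12 at 0.21, Slc7a2 at -0.22 and Slc7a5 at -0.018. In replicates 3 and 4 alone, 3262 genes were called, with 2 transporters and 3 glutathione, glutamine and glutamate enzymes lower, and with 4 deprivation genes, 2 branched-chain or tryptophan enzymes and 2 other carriers higher; Slc6a6 was at 0.026. With the library-number run as covariate 3 transporters were lower, beside 2475 of all 14051 genes tested. Leaving out 1 library gave 3 to 6 lower and 9 to 12 higher transporters, 5 to 10 higher deprivation genes and 3 to 7 higher other carriers, and ranges of -0.32 to 0.18 for Slc6a12, -0.91 to 0.007 for Slc6a9, -0.018 to 0.46 for Slc7a3 and -0.40 to 0.25 for Slc7a4. With the length of the longest coding transcript the share of Slc7a5 in ICAM1high was 8.19% and that of Slc7a6 in ICAM1low 3.43%. The causes of these shifts were not tested, and fits on part of the libraries also differ in the number of libraries.

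Libraries of the fractions share replicate and library numbers, but the labels do not say that a number marks a shared mouse. With the replicate block 4238 genes were called in place of 5920, with 11 transporters higher and 3 lower, 6 deprivation genes were higher, and Slc7a4 was at -0.035. Slc1a4, Slc6a2, Slc6a15 and Slc7a6 did not pass with the block (adjusted p = 0.105, 0.0787, 0.0716 and 0.114). Same-numbered libraries correlated at -0.57, 0.21, 0.18 and -0.30 after removal of group means, and 1 of 4 ICAM1high libraries correlated best with its own number. The 12 genes at 0 counts and the 15 near 0 could not be compared at this depth.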
